A study of Mus musculus with 2 samples.

Results

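Some genes were the nearest gene of 3 or more differentially accessible regions (DARs) after BRD9 inhibition, and these genes and their regions were examined here. The members were chosen by counting, for each gene identifier in the table of all DARs, the regions assigned to it, and keeping every region of each gene with at least 3. This gave 335 of 5650 DARs (5.93%) and 105 of 4906 genes (2.14%). ATAC-seq, in which a transposase cuts open chromatin, was performed on bone marrow-derived monocytes (BMDMs) of C57BL/6 mice cultured with M-CSF at 50 ng/ml. RANKL was present in both groups at 100 ng/ml. The control group received the vector in addition and the other group received iBRD9, an inhibitor of the bromodomain protein BRD9. Each group was 1 library made from 5000 cells, so no difference between the groups has a replicate check.

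BRD9 is a subunit of the non-canonical BAF (ncBAF) complex, a chromatin remodeler that moves or evicts nucleosomes and so changes which stretches of DNA are open. M-CSF keeps monocytes and macrophages alive, and RANKL turns them into osteoclasts, the cells that resorb bone. A DAR is given to the gene whose transcription start site (TSS) lies closest, whatever its type. This rule does not show which gene a region acts on, and genes with few neighbours receive regions from a wider stretch of the genome. A gain DAR was more open with iBRD9 and a loss DAR was less open, as the study uses these words. The tables hold no counts, signal, fold changes or p-values, so the number of reads and the strength behind each DAR are unknown.

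The genes with 5 DARs, the largest number listed, were Kcnab1, Itpr2 and Rbfox1, and the sequences of their DARs outside exons and of at most 300 bases are shown, since these genes carry the most regions under the rule. All are GRCm39, plus strand, 5′ to 3′. Capitals mark matches, on either strand, to short motifs of factors with known roles in myeloid cells. They are TGANTCA for AP-1, GGAAGT and the longer GAGGAAGT that contains it for ETS factors such as PU.1, TAAACA for forkhead factors, TGTGGT for RUNX factors, GAAANNGAA for interferon response elements, TTCNNNGAA for STAT elements and CACGTG for E-boxes. A match is a description of the letters and not a bound site. Kcnab1 encodes a beta subunit of voltage-gated potassium channels. Its loss DAR and its gain DAR upstream of the gene lay 1044 bp apart, and both held a match to the STAT letters.
Kcnab1, intergenic loss DAR at chr3:64842486-64842649: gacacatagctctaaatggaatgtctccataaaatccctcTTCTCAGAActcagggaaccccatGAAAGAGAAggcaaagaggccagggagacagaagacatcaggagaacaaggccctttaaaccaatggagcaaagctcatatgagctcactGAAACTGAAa
Kcnab1, intergenic gain DAR at chr3:64843694-64843851: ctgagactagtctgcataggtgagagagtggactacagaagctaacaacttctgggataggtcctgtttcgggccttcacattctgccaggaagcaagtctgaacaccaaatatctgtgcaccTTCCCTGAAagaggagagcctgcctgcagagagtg
Kcnab1, intronic loss DAR at chr3:65048515-65048671: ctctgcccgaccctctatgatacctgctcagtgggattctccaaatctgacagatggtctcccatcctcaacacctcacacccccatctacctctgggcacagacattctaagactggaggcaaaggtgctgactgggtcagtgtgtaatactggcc

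Itpr2 encodes an inositol trisphosphate receptor that releases calcium from the endoplasmic reticulum, the kind of calcium signal that RANKL evokes in osteoclast precursors. Its loss DAR in intron 54 of 55 held none of the motifs, and its loss DAR in intron 8, which is over 300 bases and not shown, held ETS and RUNX matches. The gain DAR upstream of the gene held an ETS match and an interferon response match.
Itpr2, intronic loss DAR at chr6:146030630-146030801: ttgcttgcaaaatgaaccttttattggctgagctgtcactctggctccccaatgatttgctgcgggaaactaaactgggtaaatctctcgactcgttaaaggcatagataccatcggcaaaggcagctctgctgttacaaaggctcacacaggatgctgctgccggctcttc
Itpr2, intronic gain DAR at chr6:146195126-146195286: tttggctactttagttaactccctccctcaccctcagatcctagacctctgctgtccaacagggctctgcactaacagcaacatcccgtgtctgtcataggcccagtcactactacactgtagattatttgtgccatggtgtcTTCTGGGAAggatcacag
Itpr2, intergenic gain DAR at chr6:146411382-146411602: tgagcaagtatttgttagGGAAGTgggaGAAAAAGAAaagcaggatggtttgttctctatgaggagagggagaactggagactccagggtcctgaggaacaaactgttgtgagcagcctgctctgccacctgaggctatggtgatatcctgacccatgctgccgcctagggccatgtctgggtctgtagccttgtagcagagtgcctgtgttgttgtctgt

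Rbfox1 encodes a splicing factor known from neurons and muscle. Of its DARs, 4 were loss and 1 was gain, and the gain DAR held both an AP-1 and a forkhead match. One of its loss DARs was largely a run of alternating c and a, a simple repeat.
Rbfox1, intronic loss DAR at chr16:6048105-6048254: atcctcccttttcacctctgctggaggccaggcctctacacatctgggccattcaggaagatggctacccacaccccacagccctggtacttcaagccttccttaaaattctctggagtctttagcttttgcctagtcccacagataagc
Rbfox1, intronic loss DAR at chr16:6144313-6144584: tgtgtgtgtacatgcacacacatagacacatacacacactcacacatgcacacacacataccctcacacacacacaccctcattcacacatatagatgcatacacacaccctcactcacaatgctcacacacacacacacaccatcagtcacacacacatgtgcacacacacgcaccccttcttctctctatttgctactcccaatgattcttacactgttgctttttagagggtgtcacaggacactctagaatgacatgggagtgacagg
Rbfox1, intronic loss DAR at chr16:6228117-6228266: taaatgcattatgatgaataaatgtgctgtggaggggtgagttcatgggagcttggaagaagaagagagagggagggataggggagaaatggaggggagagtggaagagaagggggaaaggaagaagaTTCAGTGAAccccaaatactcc
Rbfox1, intronic gain DAR at chr16:6601770-6601919: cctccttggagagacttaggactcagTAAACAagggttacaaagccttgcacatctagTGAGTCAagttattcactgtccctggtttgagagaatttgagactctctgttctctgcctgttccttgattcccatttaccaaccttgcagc
Rbfox1, intronic loss DAR at chr16:7120059-7120242: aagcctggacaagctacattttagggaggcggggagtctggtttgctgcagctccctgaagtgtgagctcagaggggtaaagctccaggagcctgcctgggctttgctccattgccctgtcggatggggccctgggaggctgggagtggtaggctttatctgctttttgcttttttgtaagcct

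Among the 105 genes, 88 had 3 DARs, 14 had 4 and 3 had 5. Just below the limit, 514 genes had 2 DARs, and 4287 genes had 1. By type, 54 genes were protein-coding (51.4%, 95% Wilson interval 42.0 to 60.8), 21 were long non-coding RNA (lncRNA) genes, 13 were pseudogenes, 9 were small RNA genes, 5 were TEC entries (transcripts still to be tested experimentally), and 3 had no match in the reference annotation. Protein-coding genes made up 47.5% of the genes with 2 DARs and 48.9% of those with 1. The intervals given here cover counting error only and take DARs or genes as independent, which DARs of one gene may not be.

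Of the members, 187 were gain and 148 were loss, so the gain share was 55.8% (50.5 to 61.0). Over all 5650 DARs, the background, it was 55.9%. Direction comes from the contrast that chose the members, so this count is a description. Within genes, 79 of 105 had DARs in both directions (75.2%, 66.2 to 82.5), 19 had gain DARs alone and 7 had loss DARs alone. The genes with both directions were split evenly, with 37 holding more gain DARs, 38 holding more loss DARs and 4 holding equal numbers. Genes with both directions were 43 of the 54 protein-coding genes, 16 of the 21 lncRNA genes, 8 of the 13 pseudogenes and 5 of the 9 small RNA genes.

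**Figure D1:**
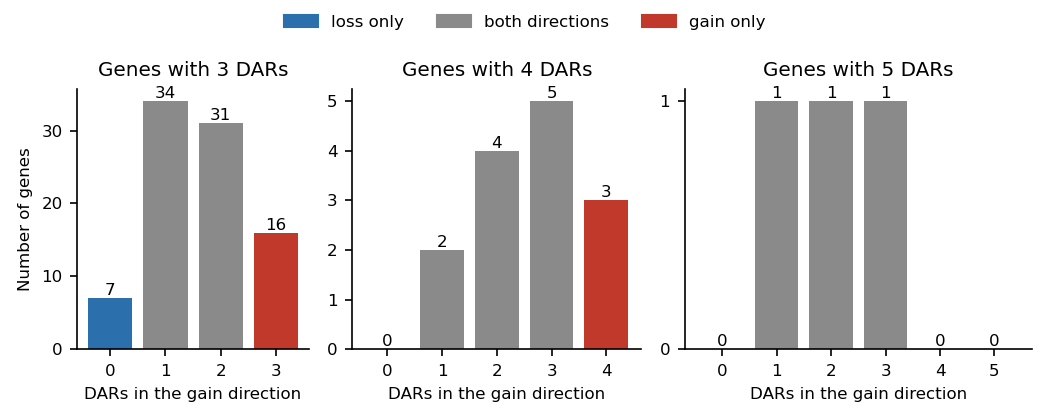
Number of genes (y axis) by how many of their DARs were in the gain direction (x axis), for genes with 3, 4 and 5 DARs. Blue bars are genes with loss DARs alone, red bars genes with gain DARs alone and gray bars genes with both; among genes with 3 DARs, 34 had 1 gain DAR and 31 had 2.

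Rbfox1, Kcnab1 and Itpr2 all had DARs in both directions. In Kcnab1 the order along chromosome 3 was loss, gain, loss, gain, loss over 362.2 kb. The promoter DAR among them, a loss at chr3:65204523-65204696, lay 139 bp upstream of an internal start site of the gene, and the 2 intronic DARs lay in intron 1 of 13. Itpr2 had 3 gain and 2 loss DARs over 381.0 kb, in introns 8, 35, 44 and 54 and upstream of the gene. In Rbfox1 the DARs covered 1072.1 kb. Introns 2 and 9 held its loss DARs and intron 3 its gain DAR, and the closest of them to a listed start site was 22.4 kb away.

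Of the 14 genes with 4 DARs, 5 were protein-coding, and each of these had both directions. Gain and loss DARs stood apart in Smurf1 and Rbms3, but not in Asap1, Hivep3 and Sdk2. In Smurf1, an E3 ubiquitin ligase of the BMP and TGF-beta pathways that is known in bone, all 4 DARs lay in intron 1. The loss DARs were 2.5 and 28.5 kb from the 5′ end of the gene, and the gain DARs were 36.7 and 52.8 kb from it. In Rbms3, which encodes an RNA-binding protein, both gain DARs lay in intron 1, at 264.3 and 653.0 kb from the 5′ end, and both loss DARs lay farther in, at 998.5 and 1179.0 kb. Asap1, which encodes a GTPase-activating protein for Arf, had 3 gain DARs and 1 loss DAR, and the loss DAR lay between gain DARs. Hivep3, which encodes a zinc finger protein also called Schnurri-3 and known in bone formation, had 3 gain DARs and 1 loss DAR over 280.9 kb. Sdk2, an adhesion molecule of neurons, had loss DARs outside and gain DARs between them, and 2 of its 4 DARs had the annotation class exon. Introns and exons named here are the listed classes. A DAR of another class can overlap an exon in the annotation used here, as the Smurf1 DAR at 2.5 kb did.

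Of the other 9 genes with 4 DARs, 8 were annotated as types other than protein-coding and 1 had no match in the annotation. The lncRNA genes were 5033426E14Rik with 3 gain DARs and 1 loss DAR, Gm11033 with 3 loss DARs and 1 gain DAR, and AA387883 with equal numbers. The pseudogenes were Frg2f4 with 3 loss DARs and 1 gain DAR, Gm50188 with 3 gain DARs and 1 loss DAR, and Gm3749 with 4 gain DARs. The small RNA genes were Gm23674 with 3 gain DARs and 1 loss DAR, and Gm25705 with 4 gain DARs. The last was ENSMUSG00000095041, which lies on an unplaced scaffold and had no symbol, with 4 gain DARs. Gm3749, Gm25705 and ENSMUSG00000095041 were the genes with 4 or more DARs in one direction alone. The first of these is annotated as a pseudogene and the second as a small RNA gene, and the type of the last is unknown.

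**Figure D2:**
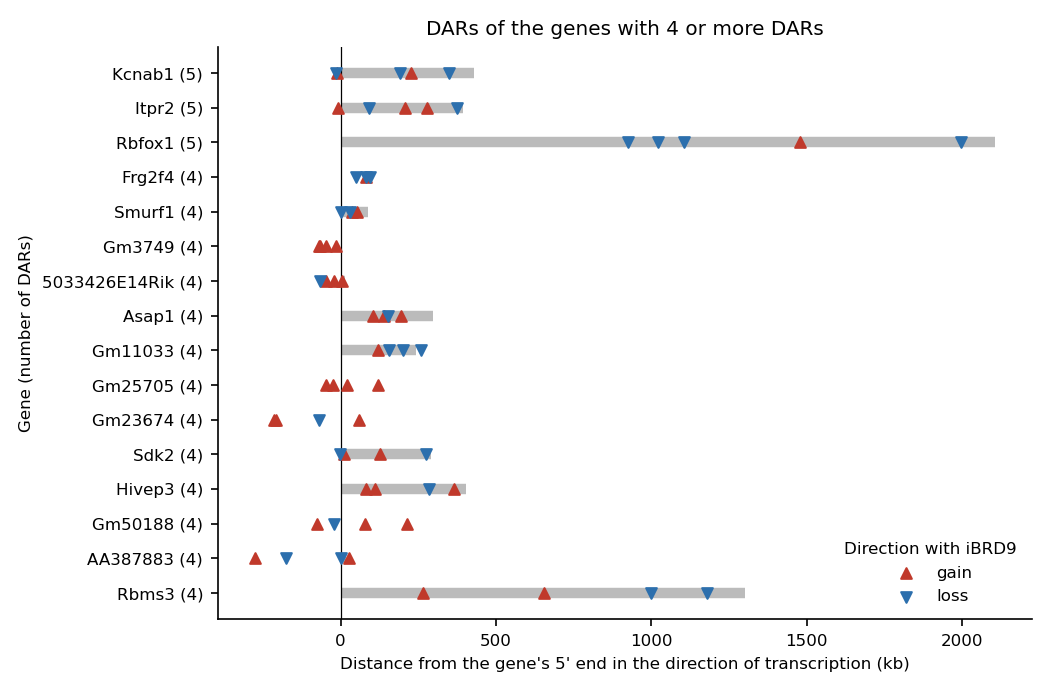
Position of each DAR (x axis, kb from the 5′ end of the gene in the direction of transcription) for the 16 genes with 4 or more DARs that the annotation holds (y axis). Gray bars are the gene bodies, red triangles pointing up are gain DARs and blue triangles pointing down are loss DARs; in Rbms3 the gain DARs come before the loss DARs, and the Rbfox1 DARs start 923.5 kb into the gene.

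Some members stood at the start of a chromosome or on an unplaced scaffold. The 4 DARs of Gm3749, on chromosome 16, began 0.062 to 55.7 kb from the first sequenced base of the chromosome, and the 3 DARs of Vmn1r-ps2, a pheromone receptor pseudogene on chromosome 4, began 0.694 to 19.7 kb from it. In all, 7 of 335 members (2.09%, 1.02 to 4.25) lay within 200 kb of such a base, against 11 of 5315 other DARs (0.207%, 0.116 to 0.370). All 7 are DARs of Gm3749 and Vmn1r-ps2, which the interval takes as independent, and a rule that keeps genes with several DARs favours such clusters. More than 1 alignment over 80% of the length in GRCm39 was found for 2 members, both gain DARs of ENSMUSG00000095041, which is 0.597% of the members (0.164 to 2.15) against 0.245% of the other DARs (0.143 to 0.418). All 5650 DARs were placed with a mapping quality of at least 30. The part of sequence copies in these DARs was not tested. Vmn1r-ps2 and these placements fall outside the rule for named genes and were chosen after their values were seen.

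The genes with 3 or more DARs stood in wider gaps between start sites than the genes with fewer. Because each DAR goes to the nearest start site, the rule itself favours such genes, so this difference is a description. The territory of a gene is the stretch of genome closer to one of its start sites than to any other start site. Its median was 240.4 kb (202.7 to 295.7, n = 102) for genes with 3 or more DARs, 140.1 kb (130.1 to 149.1, n = 502) with 2 and 67.4 kb (64.6 to 70.4, n = 4210) with 1, and the 3 intervals did not overlap. These values rest on transcripts numbered up to the highest number in the tables, a restriction chosen after seeing the data. With all transcripts of GENCODE M39, the medians were 114.4 kb for genes with 3 or more DARs and 41.4 kb for genes with 1. Gene length had medians of 93.2 kb (18.6 to 155.4), 19.7 kb (11.4 to 27.7) and 10.1 kb (9.04 to 11.5), and the intervals for 3 or more and for 2 DARs overlapped. Among protein-coding genes alone, gene length had medians of 215.0 kb (161.3 to 321.1, n = 54), 114.3 kb (95.8 to 133.8, n = 244) and 39.6 kb (36.4 to 42.9, n = 2097). Territory of protein-coding genes had medians of 298.0, 146.1 and 59.95 kb, so length and territory rose together. The longest span listed in the tables for a transcript of the gene had medians of 39.1 kb (10.7 to 85.7), 10.2 kb (6.24 to 14.4) and 4.53 kb (4.07 to 5.07).

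Pseudogenes and small RNA genes are mostly short whatever their number of DARs, so their lengths could differ little between the groups. Whether length or territory bears on the number of DARs was not tested. Pseudogenes with 3 or more DARs had a median length of 0.553 kb (0.318 to 0.654) and those with 1 DAR had 0.618 kb (0.583 to 0.657), whereas their territories had medians of 207.3 kb (101.9 to 420.6, n = 13) and 85.6 kb (79.3 to 93.8, n = 851). For small RNA genes the median lengths were 0.130 and 0.115 kb, and the median territories were 238.0 kb (141.9 to 430.8, n = 9) and 97.0 kb (77.6 to 114.2, n = 274). Per 100 kb of territory, genes with 3 or more DARs had a median of 1.27 DARs (1.08 to 1.52), genes with 2 had 1.43 (1.34 to 1.54) and genes with 1 had 1.48 (1.42 to 1.55). Summed over genes, there were 10.7, 11 and 9.55 DARs per Mb of territory. The number of DARs in these densities was fixed by the rule, and genes without a DAR are not in them, so they are a description.

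**Figure D3:**
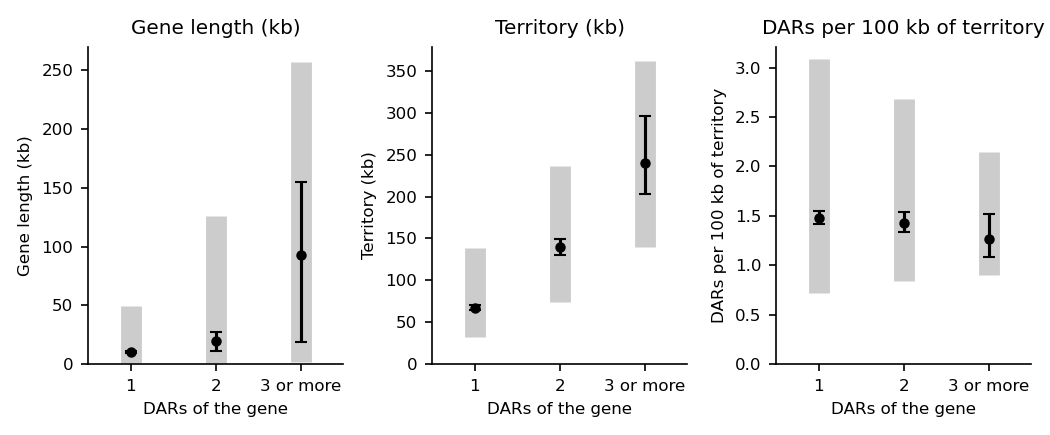
Gene length, territory and DARs per 100 kb of territory (y axes) for genes with 1, 2 and 3 or more DARs (x axes). Points are medians, black bars their 95% intervals and gray bars the quartiles, with transcripts restricted as described in the text; median territory went from 67.4 to 140.1 to 240.4 kb, and the medians of DARs per 100 kb were 1.48, 1.43 and 1.27.

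Counted per DAR, the members lay in introns more often and at promoters less often than the other 5315 DARs. Introns held 158 members (47.2%, 41.9 to 52.5) against 33.6% (32.4 to 34.9), and the promoter class held 16 (4.78%, 2.96 to 7.62) against 17.2% (16.2 to 18.2). Counted per gene, a promoter DAR was present in 15 of the 105 genes (14.3%, 8.85 to 22.2) against 19.1% of the genes with 1 DAR (18 to 20.3), and these intervals overlapped. A gene with more DARs has more chances to hold a promoter DAR, so these per-gene shares are not like measures. Distal intergenic sequence held 147 (43.9%, 38.7 to 49.2) against 40.5% (39.2 to 41.8), with intervals that overlapped. It held 46.4% of the DARs of genes with 2 (43.4 to 49.5). Exons held 10 members, the stretch just downstream of genes 2, 5′ UTRs 2 and 3′ UTRs 0. A count of 0 allows a share of up to 0.896% by the limit of 3 counts, and the Wilson interval of this share overlapped that of the other DARs (1.32%, 1.04 to 1.66). Among protein-coding genes alone, introns held 65.3% of the DARs of genes with 3 or more and 39.8% of the DARs of genes with fewer, and promoters held 6.94% and 27.6%. The gain share of the members was 53.2% in introns (45.4 to 60.8), 57.8% in distal intergenic sequence (49.7 to 65.5) and 43.8% at promoters (23.1 to 66.8), and these intervals overlapped.

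**Figure D4:**
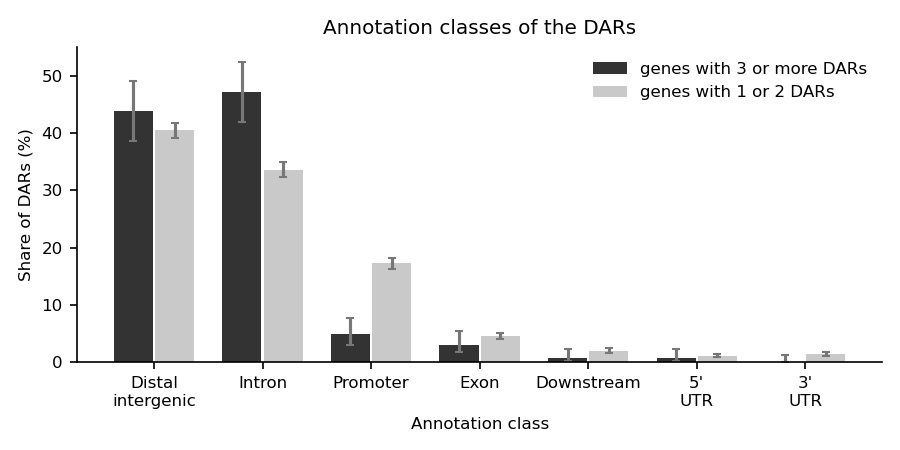
Share of DARs in each annotation class (y axis, percent) for DARs of genes with 3 or more DARs (black) and of genes with 1 or 2 (gray), with 95% Wilson intervals. Introns held 47.2% against 33.6% and promoters 4.78% against 17.2%.

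Of the 158 intronic members, 125 lay in an intron of the gene to which they were assigned (79.1%, 72.1 to 84.7), against 61.4% (59.2 to 63.7) of the other intronic DARs. The first intron held 27.8% of the intronic members (21.4 to 35.3) against 36.7% (34.5 to 38.9). In 21 genes every DAR lay in an intron of that gene, and in 33 genes every DAR was distal intergenic. In 13 genes at least 1 DAR lay in an intron of another gene. Gm42942, a TEC entry, had its 3 DARs in intron 1 of Negr1, an adhesion molecule of neurons. Trim32, an E3 ubiquitin ligase gene named here after its values were seen, had its 3 DARs in introns of Astn2.

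A DAR covered a TSS in 4 of the 105 genes, which is 1.19% of the members (0.465 to 3.03) against 8.20% of the other DARs (7.50 to 8.97). Glg1, which encodes a Golgi glycoprotein, had a gain DAR over its TSS, a second gain DAR 289 bp away in exon 1 and another gain DAR in intron 1. Tacr1, the receptor of substance P, had a gain DAR over its TSS and loss DARs in introns 2 and 3. Tcf7l2, a transcription factor of the Wnt pathway, had a loss DAR over a TSS, a loss DAR 98.1 kb upstream of a start site and a gain DAR in intron 4. The lncRNA gene Gm39469 had a loss DAR over the TSS listed in the tables and a gain DAR 96 bp away. In the annotation used here the 5′ end of this gene lay at position 124045145 of chromosome 9, within the gain DAR, so which direction covers its TSS depends on the annotation. The median distance from a member to the listed TSS was 34.9 kb (28.2 to 44.9) against 11.2 kb (10.6 to 11.9), and 39.4% of the members (34.3 to 44.7) lay over 50 kb away against 17.6% (16.6 to 18.6).

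The DARs of a gene spanned a median of 116.2 kb (93.1 to 154.3), from 7.42 kb in Gm42942 to 1122.3 kb in Pde4d. Pde4d, which encodes a phosphodiesterase that breaks down cAMP, had a gain DAR upstream of the gene, a loss DAR in intron 1 and a gain DAR in intron 3. Between consecutive DARs of a gene the gap had a median of 49.2 kb (37.5 to 62.1, n = 230 pairs). Of these pairs, 113 had the same direction (49.1%, 42.7 to 55.6). The gap had a median of 51.2 kb (35.9 to 71.7) for these and 47.9 kb (32.6 to 66.0) for pairs of opposite directions. Of the 21 pairs up to 5 kb apart, 7 had the same direction (33.3%, 17.2 to 54.6), against 32 of 60 (53.3%, 40.9 to 65.4) over 100 kb apart, and these intervals overlapped. The closest pairs lay in Gm39469, Frg2f4 (137 bp), Shisa9 (215 bp), Glg1 and Gm42942 (923 bp), and the pair in Glg1 was the one with the same direction. Shisa9, which encodes a partner of AMPA receptors, had this pair in intron 2.

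**Figure D5:**
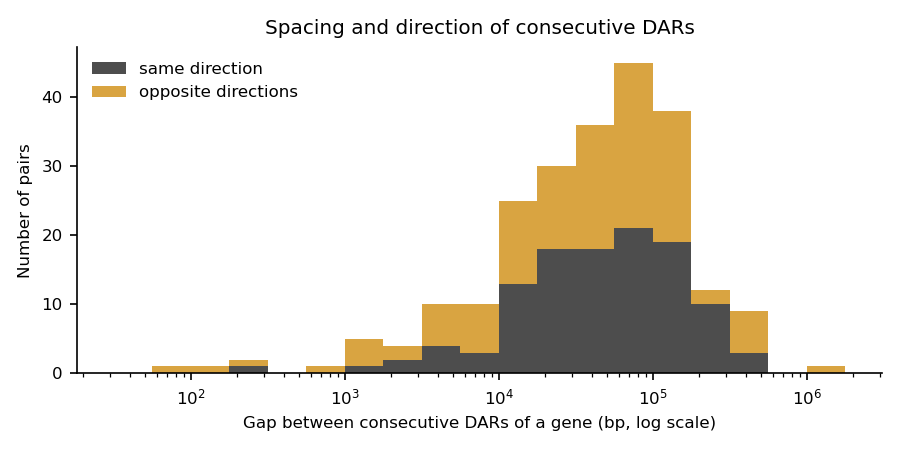
Number of pairs of consecutive DARs of a gene (y axis) by the gap between them (x axis, bp, log scale), stacked by whether both had the same direction (dark) or opposite directions (yellow). Of 230 pairs 113 had the same direction, and the 5 pairs closer than 1 kb included 1 with the same direction.

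The regions carry numbers that run in genome order on each chromosome, up to 21333, which are taken here as numbers of the consensus set of peaks. DARs are 26.5% of these numbers. From the first to the last DAR of a gene, 342 of 485 numbers were DARs of any gene (70.5%, 66.3 to 74.4), which the rule raises because both ends are DARs. With both ends left out, 132 of 275 were DARs (48.0%, 42.2 to 53.9), still a description because the rule asks for at least 1 DAR there. ENSMUSG00000095041 alone spans 43 of the numbers, and without it the shares were 76.5% (72.3 to 80.2) and 55.6% (49.2 to 61.8). In 55 of the 105 genes every number from first to last was a DAR. The next number outside the DARs of a gene was a DAR in 30.6% of cases (24.7 to 37.2) for genes with 3 or more DARs, 27.1% (24.5 to 29.9) with 2 and 24.5% (23.6 to 25.4) with 1. It can be a DAR of another gene only, since one of the same gene would count among its DARs, so the rule shapes these shares too. The first and the last of these intervals overlapped.

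The members had a median width of 183 bp (175 to 189) and the other DARs one of 187 bp (185 to 189). Their median GC content was 48.8% (48.1 to 49.5) against 50.0% (50.0 to 50.3), and in flanks of 150 bp placed 1 kb to each side it was 41.7% (40.7 to 43.0) against 43.3% (43.3 to 43.7). CpG dinucleotides numbered a median of 0.580 per 100 bp (0.524 to 0.654) against 0.957 (0.913 to 1.01). Within introns the medians were 0.633 (0.546 to 0.667) and 0.855 (0.699 to 0.930), and within distal intergenic sequence 0.461 (0.341 to 0.549) and 0.658 (0.629 to 0.667). The members thus held fewer CpG dinucleotides in both classes, while GC content in distal intergenic sequence was 48.7% (47.8 to 49.7) against 48.6% (48.3 to 48.8).

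In the middle 150 bp, the RUNX letters were in 56 members (16.7%, 13.1 to 21.1) against 12.4% of the other DARs (11.6 to 13.3) and 8.96% of the members' flanks (7.02 to 11.4). The ETS letters GGAAGT were in 12.5% (9.41 to 16.5) against 15.6% (14.7 to 16.6), and in 8.51% of the flanks (6.62 to 10.9). The AP-1 letters were in 7.16% (4.86 to 10.4) against 8.69% (7.96 to 9.48), and in 5.52% of the flanks (4.03 to 7.52). The forkhead letters TAAACA were in 6.27% (4.14 to 9.39) against 6.53% (5.90 to 7.22), and in 11.3% of the flanks of both (9.16 to 14.0 for the members, 10.7 to 11.9 for the other DARs). The longer ETS letters were in 1.49% (0.639 to 3.45) against 3.05% (2.62 to 3.55), the interferon response letters in 3.88% against 3.33%, the STAT letters in 4.78% against 3.18%, and the E-box in 1.19% against 2.45%. In the members' flanks, the interferon response letters were in 7.01% (5.32 to 9.20) and the STAT letters in 6.42% (4.80 to 8.53), both above the members. The longer ETS letters were in 0.448% of these flanks and the E-box in 1.19%. For all 8 motifs the interval of the members overlapped that of the other DARs. For RUNX, gain and loss members had 18.7% (13.8 to 24.9) and 14.2% (9.47 to 20.7).

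The genes with 3 or more DARs were set beside 4 gene lists. Of 86 osteoclast and myeloid regulators, 0 had 3 or more, and Bach1, Itgb3 and Mitf had 2. Of 34 BAF subunits and bromodomain proteins, 0 had 2 or more. Of 139 genes of neural adhesion, synapse and guidance, 3 had 3 or more DARs. Among them were Rbfox1 and Grik1, a kainate receptor subunit with 3 loss DARs. Of 117 developmental transcription factors, Tcf7l2 and Sox5 had 3. Sox5, which acts in cartilage and neurons, had 3 gain DARs over 460.5 kb, all in its introns. Of 19 marker genes of macrophages, osteoclasts and other cell types, 0 had 3 or more DARs, and Adgre1, Spi1 and Col1a1 had 1 each. Against 2.14% of all genes with any DAR, the genes with 3 or more were 3 of 53 neural genes with any DAR, 2 of 25 developmental transcription factors and 0 of 23 osteoclast and myeloid regulators, which are too few to tell a list apart from the rest. The tables hold no expression or signal, so the identity of the cells could not be checked.

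The type of gene that may receive a DAR set how many genes had 3 or more. When each DAR was given to the nearest start site of a protein-coding gene, 405 genes had 3 or more DARs and together held 1529 DARs. These included all 54 protein-coding genes found with the assignment of the tables. Apart from differences in annotation, the rule fixes this, since a DAR nearest to a protein-coding start site stays with that gene. Both directions were present in 342 of the 405 (84.4%), gain alone in 40 and loss alone in 23. Of the 405 genes, 172 had 4 or more DARs, and more DARs give more chances to hold both directions. The largest number was 13, in Zfhx3, a transcription factor gene with 9 gain and 4 loss DARs that had 2 DARs in the tables and is named here after its values were seen. In this assignment Rbfox1 had 4 gain and 5 loss DARs, and Rbms3 had 5 gain and 4 loss DARs. The lists then held 7 osteoclast and myeloid regulators, 59 neural genes, 20 developmental transcription factors and 1 BAF subunit with 3 or more DARs. The share over all protein-coding genes with any DAR was not computed in this assignment, so these counts do not tell a list apart from the rest.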

How the data were processed

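ATAC-seq libraries of both conditions were sequenced by the authors, who trimmed reads with cutadapt 1.9.1, aligned them to GRCm39 with Bowtie2 2.2.6, removed duplicates (Picard 1.126 is named in their processing notes), sampled both libraries to a common depth and called peaks with MACS3 for each library. Peaks were merged, and a change of at least 0.5 on the log2 scale in either direction made a region a DAR. No shift of reads to the transposase cut site is stated. The deposited tables, 3 in number (all, gain and loss DARs), hold coordinates, widths, annotation classes and distances in bp to the TSS, and no measured level. Thus the number of reads behind each DAR is unknown, and no p-value could be computed. Any region left out of the tables used here would not be counted.

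The members, gene lists and motifs were chosen with earlier results of these data known. The number of rows per gene, direction, span, gap, territory, class shares, base composition and motifs were computed in Python (3.11.15; packages pysam 0.24.0, scipy 1.17.1, pandas 2.3.3, numpy 2.4.6), and alignments with minimap2 2.31-r1302. Gene types, lengths and territories came from GENCODE M39, restricted to transcripts numbered up to the highest number in the tables, a choice made after seeing the data. With it, the listed gene was the nearest for 321 of 335 members. Of 105 genes, 102 had a match. Territories leave out the unsequenced start of each chromosome. Chromosomes named 20 and 21 are X and Y, and starts are 1-based. Shares carry 95% Wilson intervals, and medians carry intervals from binomial order statistics. The steps were tested on simulated data. The planned share of repeats could not be computed, since the genome file used here does not mark them.

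Genes named in the text were those with 4 or more DARs, list members with 3 or more, the genes with the longest and the shortest span, the 5 with the closest pair, and those with a DAR over a TSS. An item under this rule is not reported here. Alternatives were a limit of 2 or 4 DARs, merging of DARs within 1 kb, subsets of chromosomes, classes and gene types, assignment to protein-coding genes, other gene lengths, and other motif letters and windows.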

Additional observations from a re-analysis of the deposited data

How the results depend on the processing

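No paired analysis was possible because there is a single library per condition, and no result comes from a test across samples. Of 78 alternative values, 44 stayed within 1.5 times of the reported count or within the reported interval. Merging same-direction DARs within 1 kb, which joined 1 pair of the members, moved no result, and counting only autosomes and chromosome X moved neither count nor direction share. The limit moved the counts by construction, to 17 genes and 71 DARs at 4 and to 619 genes and 1363 DARs at 2. So did the subsets, with 46 genes and 146 DARs without distal intergenic DARs and 35 and 110 with these alone. Nearest protein-coding start sites gave 405 genes and 1529 DARs.

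The share of genes with both directions was 84.4% for protein-coding start sites and 57.0% at a limit of 2. A gene with more DARs has more chances to hold both, so these shares depend on the number of DARs per gene. At a limit of 4 the median territory was 334.4 kb and median GC 48.0%. The median listed span was then 17.97 kb (n = 17), lower than the 39.14 kb at a limit of 3 but within its interval. With protein-coding genes alone, the median listed span was 130.7 kb, territory 298.0 kb, introns 65.3%, distal intergenic 21.4%, distance 22.4 kb and gap 70.7 kb. The distal intergenic share was also 21.4% for DARs of protein-coding genes with fewer DARs, so the difference seen over all gene types was absent there. Gene length from the annotation gave 93.2 kb, and from all M39 transcripts 101.3 kb. Territory was 114.4 kb with all M39 transcripts, an alternative added after seeing the data. DARs among region numbers were 48.0% without both ends and 76.5% without the scaffold gene, added likewise. The ETS share was 17.3% in whole DARs and the forkhead share 0.896% with GTAAACA. List counts at a limit of 2 were 3 of 23 osteoclast, 16 of 53 neural, 7 of 25 developmental and 0 of 8 BAF genes with any DAR. Over all genes with any DAR the count was 619 of 4906. The lists were chosen with earlier results known, and a difference between a list and the rest was not tested. With protein-coding start sites the list counts were 7, 59, 20 and 1, in the same order. No share over all genes was set beside these, so they do not tell a list apart from the rest. Motif shares in whole DARs cover more bases, and other causes were not tested. What depth limits was not tested, since the tables give no reads per DAR.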
